A study of Homo sapiens with 50 samples.

Results

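The hairpins described here target ADAR, ADARB1 and ADARB2, the genes of the ADAR family of RNA editing enzymes, and were taken as every line of the deposited table whose gene name was exactly one of these. There were 15 of them among 3443 hairpins, 5 for ADAR, 5 for ADARB1 and 5 for ADARB2. Each set of 5 carried consecutive catalogue numbers, TRCN0000050788 to TRCN0000050792 for ADAR, TRCN0000050938 to TRCN0000050942 for ADARB1 and TRCN0000051893 to TRCN0000051897 for ADARB2. ADAR was chosen by its mean log2 fold change at population doubling (PD) 60 relative to PD40, which was among the lowest of the genes, so its PD60 values are a description and carry no test. ADARB1 and ADARB2 were added as the other members of the family.

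The screen asked which chromatin regulators shorten the replicative lifespan of a fibroblast, on the reasoning that a cell losing such a gene would outgrow its neighbours. IMR90 cells, a human lung fibroblast line with a finite lifespan, were grown at 3% oxygen and infected with lentiviral short hairpin RNAs at a multiplicity of infection of 0.3. The groups were proliferating cells at PD40, cells of the 3 intermediate times PD45, PD50 and PD55, and senescent cells of PD60, all of them from infected plates, with 10 plates per group in the labels. A plate received 1 of 10 pairings of 5 starting pools, so each hairpin was carried by 4 plates, and the table held 1 pooled column per group. There was therefore no replicate, the spread between cultures is not measured by any value below, and no p-value is given. Knock-down of the targets was not measured in these data, and a single cell line was used.

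ADAR enzymes bind double-stranded RNA and convert adenosine to inosine, which ribosomes read as guanosine. ADAR encodes ADAR1, which is made in most tissues in a constitutive and an interferon-induced form and whose editing keeps a cell's own double-stranded RNA from setting off the sensors of antiviral defence. ADARB1 encodes ADAR2, best known for recoding glutamate receptor transcripts in neurons, and ADARB2 encodes ADAR3, a brain protein for which no deaminase activity is known.

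Tags per column ran from 8270745 at PD60 to 11505688 at PD55, and levels are given as tags or as CPM, tags scaled to a column total of 1000000. At PD60 1 tag was 0.121 CPM. A fold change is the log2 ratio to PD40 of CPM after adding a pseudocount of 1, so the loss of a hairpin with a low start is understated. The 95% interval beside each ratio is an exact one for 2 Poisson counts and covers counting error only, as PCR copies carried no molecular identifier. The median log2 fold change over all hairpins was -1.63, -3.46, -4.93 and -5.86 from PD45 to PD60. The 50 hairpins most abundant at PD60, none of them against an ADAR gene, held 89.9% of tags at PD60 and 10.7% at PD40. Scaled with edgeR's trimmed mean of M-values (TMM), the median at PD60 was -1.84. Lower and higher below are thus relative to the column total. They are to be read beside the medians of all hairpins given above, which are repeated only for some values.

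The 5 ADAR hairpins had 1 to 40 tags at PD60, and 1 of them had first expanded. Low counts at PD60 were the state of the library: its median hairpin had 1 tag, 1519 of 3443 hairpins had 0, and 4 of the 5 ADAR hairpins lay above that median. Summed over the 5, the tags numbered 28201, 32522, 26472, 3315 and 57 from PD40 to PD60. As a share of the column this was 0.327%, 0.370%, 0.312%, 0.0288% and 0.000689%, the last with an exact binomial 95% interval of 0.000522% to 0.000893%. Up to PD50 the summed share was thus close to its start, and between PD50 and PD60 nearly all of it was lost. Ordered by summed tags among 631 genes with at least 3 measured hairpins, ADAR took places 61, 52, 58, 190 and 359 from PD40 to PD60.

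The ADAR hairpin that expanded was TRCN0000050792. From PD40 to PD60 it had 6634, 17855, 21718, 2120 and 6 tags, or 769, 2033, 2561, 184 and 0.725 CPM. Its level at PD50 was 3.33 times that at PD40 (95% counting interval 3.24 to 3.42), which put it at rank 63 of the library by abundance, against rank 246 at PD40. At PD50 it made up 82.0% of all ADAR tags. At PD60 it was 1060-fold lower than at PD40 (487 to 2890).

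The loss of TRCN0000050792 came in the last 2 intervals. Its CPM were 13.9-fold lower at PD55 than at PD50 (13.3 to 14.5) and 254-fold lower at PD60 than at PD55 (116 to 693). Of 444 hairpins with at least 1000 tags at PD55, it had the lowest ratio of PD60 to PD55, and 5 of the 444 (1.13%) were over 100-fold lower. It was also 1 of 98 hairpins of 3418 (2.87%) that were over 2-fold higher at PD50 and over 2-fold lower at PD60, each relative to PD40, and among these 98 its log2 difference between PD60 and PD50, -10.54, was the lowest. These comparisons were chosen after its values were seen, and those that involve PD60 share a column with the choice of ADAR. At PD55 its log2 fold change from PD40 was -2.06 scaled to column totals but 2.88 with TMM, so the direction at that time depended on scaling, whereas at PD50 it was 1.73 and 4.55 and at PD60 -8.80 and -3.07.

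TRCN0000050791 was the most abundant ADAR hairpin at the start, at rank 85 of the library. It had 14015, 13034, 4477, 1117 and 40 tags at the 5 times, or 1625, 1484, 528, 97.1 and 4.84 CPM. By column totals its level at PD45 was 0.913 times that at PD40 (0.892 to 0.936), so that most of its loss on that scale came later. At PD60 it was 336-fold lower than at PD40 (247 to 470), and 20.1-fold lower than at PD55 (14.6 to 28.3). Its log2 fold change scaled to totals was -0.13 at PD45, -1.62 at PD50 and -4.05 at PD55. With TMM these were 1.03, 1.21 and 0.88, so here too the direction before PD60 depended on scaling.

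The other 3 ADAR hairpins were lower from the first interval on. TRCN0000050790 had 3594, 479, 40, 5 and 4 tags, TRCN0000050788 had 2481, 630, 96, 33 and 1, and TRCN0000050789 had 1477, 524, 141, 40 and 6. Already at PD45 they were 7.64-fold (6.94 to 8.42), 4.01-fold (3.67 to 4.38) and 2.87-fold (2.60 to 3.18) lower. Relative to the median hairpin they stood at -1.28, -0.36 and 0.12 log2 units at that time, so TRCN0000050789 was not below it. TRCN0000050790 was the earliest to be lost: at PD50 it was 88.3-fold lower than at PD40 (64.7 to 124), at percentile 4.00 of all hairpins measured, and at PD55 it was at percentile 0.439. Its 5 tags at PD55 and 4 at PD60 leave no measurable difference between those times, with a ratio of 1.11 and an interval of 0.221 to 5.17.

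ADAR hairpins differed widely from each other up to PD55 and lay closer together at PD60. Their log2 fold changes spanned -2.91 to 1.40 at PD45 and -6.19 to 1.73 at PD50. They spanned -8.19 to -2.06 at PD55 and -8.80 to -6.64 at PD60, and the SD over the 5 hairpins was 1.69, 3.03, 2.30 and 0.79. At PD45 3 of 5 were lower by over 2-fold and 1 was higher by over 2-fold, where 63.2% of all hairpins were lower and 5.73% higher. At PD50 it was 4 lower and 1 higher, against 81.9% and 4.94%. At PD55 all 5 were lower and 0 higher, against 91.7% and 2.92%, and at PD60 all 5, against 95.3%, so the count of lower hairpins at the late times was near that of the whole library. With TMM the counts were 1 lower and 2 higher at PD45, against 34.3% and 19.8% of the library, 2 and 2 at PD50, against 46.4% and 25.6%, and 2 and 1 at PD55, against 54.8% and 23.6%. With no pseudocount the SD over the 5 hairpins was 1.70, 3.13, 2.94 and 1.34, so the spread at PD60 was also the smallest of the 4 on that scale, though wider than with the pseudocount.

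By column totals the ADAR mean was -1.03 at PD45, place 470 from the lowest of 631 genes, -2.78 at PD50, place 408, -5.16 at PD55, place 170, and -7.94 at PD60, place 4. Relative to the median hairpin it was 0.60, 0.68, -0.22 and -2.08 log2 units, and with TMM 0.59, 0.83, 0.72 and -0.56, so its sign at PD55 depended on scaling. With column totals, counts of 0 set to 3 tags, all other counts kept and no pseudocount, its place at PD55 was 346. Without TRCN0000050792 the means at PD45 and PD50 were -1.63 and -3.91, so the values above the median hairpin at those times rested on that 1 hairpin. The genes next to ADAR at PD60 were CXXC1 below it, with a mean of -8.40, and ING3 above it, with -7.84. The SD over hairpins was 0.17 for CXXC1, 0.79 for ADAR and 0.85 for ING3. It describes the spread over hairpins, and whether these genes differ was not tested.

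Place 4 depended on how low counts were treated and on scaling. With counts of 0 set to 3 tags in the column, all other counts kept and no pseudocount, ADAR stood at place 10. In that setting a hairpin with 0 tags counted as higher than one with 1 tag. No ADAR hairpin had 0 tags at PD60, and TRCN0000050788 had 1, so this place favours a low ADAR mean. With a pseudocount of 0.1 it stood at place 47, with TMM at 101 and with DESeq2's size factors at 124. Under TMM all 5 ADAR hairpins were below their PD40 level at PD60, with log2 fold changes of -3.70 to -0.96. In the library 863 of 3418 hairpins were above theirs. Of the ADAR hairpins 4 of 5 were over 2-fold lower, against 64.4% of the library, and their mean stood at -0.56 log2 units relative to the median hairpin. Starting abundance moved with the mean as well. Hairpins were split by PD40 abundance into 5 bins of equal size. In the highest bin, which held TRCN0000050790, TRCN0000050791 and TRCN0000050792, the median log2 fold change at PD60 over all hairpins was -6.24. In the next bin, which held the other 2, it was -7.19, and in the lowest bin -4.42. At PD60 1.45%, 19.2% and 84.5% of hairpins in these 3 bins had 0 tags. The pseudocount thus limited the value of the lowest bin, where starts were at most 323 tags. Within their own bins TRCN0000050790, TRCN0000050791 and TRCN0000050792 stood at percentiles 21.8, 22.1 and 7.40, TRCN0000050788 at 6.69 and TRCN0000050789 at 63.1. The part of starting abundance in the ADAR mean was not tested.

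All 5 ADARB1 hairpins were below their PD40 level at PD45, and they had 0 to 5 tags at PD60, where the median hairpin of the library had 1. Their summed tags numbered 8986, 2687, 538, 69 and 8 from PD40 to PD60. By column totals all 5 were over 2-fold lower than at PD40 from PD45 on, as were 63.2% of all hairpins at PD45 and 95.3% at PD60. With TMM it was 3 of 5 at PD45, 4 at PD50 and all 5 at PD55 and PD60, where 34.3%, 46.4%, 54.8% and 64.4% of the library were lower. None had a higher level at any later time than at PD40, whether scaled to column totals, with TMM or with DESeq2's size factors. By column totals 4 of 5 were lower at every step, against 48.8% of hairpins in the library. At PD55 635 hairpins of the library, TRCN0000050941 among them, had 0 tags and so could not be lower at PD60. With TMM the log2 fold change of TRCN0000050942 went from -1.96 at PD50 to -1.33 at PD55. That of TRCN0000050939 went from -3.02 at PD55 to -2.98 at PD60, so the count of hairpins lower at every step depended on scaling.

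TRCN0000050940 was the most abundant ADARB1 hairpin at every time, with 3985, 1338, 347, 44 and 5 tags. It was 3.03-fold lower at PD45 (2.85 to 3.23), 11.3-fold at PD50 (10.1 to 12.6), 121-fold at PD55 (89.8 to 167) and 764-fold at PD60 (327 to 2355). Relative to the median hairpin it stood at 0.04, -0.01, -1.65 and -2.31 log2 units at these times. TRCN0000050939 had 2427, 1078, 126, 10 and 2 tags. These 2 hairpins started at ranks 492 and 852, within the range of the ADAR hairpins, and neither expanded.

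The ADARB1 hairpins with lower starts followed the same course at lower counts. TRCN0000050938 had 1232, 150, 40, 2 and 0 tags, and its 95% counting interval at PD60 began at 320-fold lower than at PD40. TRCN0000050942 had 874, 106, 23, 13 and 1 tags, with a ratio of PD60 to PD40 of 0.00119 (3.02e-05 to 0.00667). TRCN0000050941 had 468, 15, 2, 0 and 0 tags, and its interval at PD60 began at 121-fold lower. It was 31.8-fold lower at PD45 (19.1 to 57.2), the lowest ratio of the 5 at that time.

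The ADARB1 mean was -2.62 at PD45 (SD 1.26 over 5 hairpins), -4.51 at PD50 (SD 0.75), -6.43 at PD55 (SD 0.72) and -7.09 at PD60 (SD 0.97). It stood at places 77, 44, 8 and 34 from the lowest of 631 genes. Unlike that of ADAR, its distance from the median hairpin, -0.99, -1.05, -1.49 and -1.23, was similar at all 4 times. It was also less dependent on scaling, at -1.11 with TMM and -1.13 with DESeq2's size factors at PD60, where its place was 33 and 41. With a pseudocount of 10 it was at place 97, and a pseudocount of 0.1 put it at place 24, below ADAR, so the order of the 2 genes at PD60 was not settled.

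Of the ADARB2 hairpins, 1 persisted with 265 tags at PD60 and the other 4 had 0 to 18. TRCN0000051894 had 3156, 3710, 2962, 1904 and 265 tags, or 366, 422, 349, 165 and 32.0 CPM. Its level at PD45 was 1.15 times that at PD40 (1.10 to 1.21), and at PD50 the ratio by column totals of 0.955 had an interval of 0.908 to 1.004 that included no difference. It was 2.21-fold lower at PD55 (2.09 to 2.34) and 11.4-fold lower at PD60 (10.1 to 13.0), which was still at percentile 86.2 of all hairpins. Scaled with TMM its log2 fold changes were 1.36, 2.74, 3.78 and 3.30 from PD45 to PD60, against 0.21, -0.07, -1.14 and -3.47 by column totals, so its direction from PD50 on depended on scaling. Relative to the median hairpin it was higher at all 4 times on both scales, by 1.84, 3.39, 3.79 and 2.39 log2 units with column totals.

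Among the other ADARB2 hairpins, TRCN0000051893 had 2731, 1282, 338, 65 and 0 tags. Its 95% counting interval at PD60 began at 709-fold lower than at PD40. TRCN0000051895 had 2844, 394, 44, 10 and 3 tags, and TRCN0000051896 had 1254, 212, 69, 16 and 2. By column totals all 3 were lower at every step, as were 48.8% of hairpins in the library, where those with 0 tags at PD55 could not count. With TMM each of the 3 had a step up. TRCN0000051893 was at a log2 fold change of 0.05 at PD45. TRCN0000051895 went from -3.24 at PD55 to -2.74 at PD60, and TRCN0000051896 from -1.29 at PD45 to -1.20 at PD50. TRCN0000051897 started lowest of the 15 hairpins, with 291, 4, 1, 0 and 18 tags. It was 74.1-fold lower at PD45 (28.6 to 274), and its 18 tags at PD60 were the only return from 0 among the 15. Its log2 fold change at PD60 was -3.45 by totals and 2.60 with TMM.

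By column totals the ADARB2 mean was close to the median hairpin at PD50, PD55 and PD60. It was -2.17 at PD45 (SD 1.81 over 5 hairpins), -3.54 at PD50 (SD 2.21), -5.05 at PD55 (SD 2.36) and -6.01 at PD60 (SD 2.38). Relative to the median hairpin these were -0.55, -0.09, -0.12 and -0.15 log2 units, and the places from the lowest were 166, 243, 203 and 204 of 631. With TMM the values were -0.29, 0.07, 0.44 and 1.02. By summed tags ADARB2 held 288 at PD60, more than the 57 of ADAR and the 8 of ADARB1, and 92.0% of them were those of TRCN0000051894.

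Over the 3 genes, 12 of 15 hairpins were past 2-fold in the lower direction and 1 in the higher at PD45, 13 and 1 at PD50, and 15 and 0 at both PD55 and PD60. In the library 63.2%, 81.9%, 91.7% and 95.3% were lower, and at PD60 2.28% were higher, so 0 of 15 higher at PD60 is near the background. With TMM the counts were 7 lower and 3 higher at PD45, 9 and 3 at PD50, 10 and 2 at PD55, and 12 and 2 at PD60. The library's TMM shares were 34.3% and 19.8%, 46.4% and 25.6%, 54.8% and 23.6%, and 64.4% and 18.8% at these times. The 2 higher at PD60 were ADARB2 TRCN0000051894 and TRCN0000051897. The highest column was PD40 for 13 of the 15 hairpins, PD45 for TRCN0000051894 and PD50 for TRCN0000050792; in the library it was PD40 for 80.5% of hairpins, PD45 for 11.97% and PD50 for 3.86%. All later columns are compared with the same PD40 column, so these counts are not independent of each other.

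Each time was also compared with the one before it. From PD45 to PD50, 4 of 5 ADAR, 5 of 5 ADARB1 and 3 of 4 measured ADARB2 hairpins were over 2-fold lower at the later time and 0 over 2-fold higher, against 71.4% and 2.22% of all hairpins. From PD50 to PD55 it was 5 of 5, 3 of 4 and 4 of 4, with 0 higher, against 80.8% and 1.7%. In the last interval, PD60 over PD55, it was 4 of 4, 1 of 3 and 2 of 5, against 73.2%, and ADARB2 TRCN0000051897 was over 2-fold higher, against 5.4%. In that interval the ADAR mean was -3.49 (SD 2.47 over 4 hairpins), at place 8 from the lowest of 319 genes with at least 3 measured hairpins, while the ADARB1 mean was -1.03 (3 hairpins) and the ADARB2 mean -0.96 (5 hairpins). At such low counts the pseudocount set the size of these values. As plain ratios of CPM, 4 of 4 ADAR, 3 of 3 ADARB1 and 4 of 5 ADARB2 hairpins were over 2-fold lower in the last interval, against 82.5% of the library, so the counts by interval depended on the pseudocount and no order in the timing of loss is read from them. Of the ADARB1 hairpins, TRCN0000050940 was 6.33-fold lower at PD60 than at PD55 (2.52 to 20.4) and TRCN0000050942 9.34-fold lower (1.40 to 397).

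Genes that work beside the ADAR enzymes were sought by symbol, with older and newer symbols of a gene counted apart. Of 23 symbols listed for the binding and sensing of double-stranded RNA, 1 was a gene name of the table. For RNA interference it was 1 of 19, and for other nucleic acid deaminases 0 of 16. The other symbols were not analysed here. IRF3, a transcription factor that switches on interferon genes when double-stranded RNA is sensed, had 5 hairpins. All were over 2-fold lower at PD60, against 95.3% of the library. Their median log2 fold change was -4.92, where the library's was -5.86. That median was the value of TRCN0000005922, which fell from 252 tags at PD40 to 0, so the pseudocount limited it. The 5 hairpins had 114, 207, 0, 0 and 0 tags at PD60. IRF3 hairpin TRCN0000005920 had 2352, 2682, 3949, 2657 and 207 tags, a maximum at PD50 like that of ADAR TRCN0000050792 but with 207 tags left at PD60. DICER1, the nuclease that cuts microRNA precursors and also processes short hairpin RNAs, had 5 hairpins. All 5 were over 2-fold lower at PD45 and at PD60, against 63.2% and 95.3% of the library. Their medians were -1.13 and -6.26, where those of the library were -1.63 and -5.86. With TMM 2 of the 5 were over 2-fold lower at PD45, against 34.3% of the library. On that scale 3 were above their PD40 level, as were 1374 of 3420 hairpins in the library. The DICER1 hairpins had 0 to 27 tags at PD60. With TMM 3 of 5 IRF3 hairpins lay past 2-fold on the lower side at PD60 and 2 on the higher side, and 3 of 5 DICER1 hairpins were lower and 0 higher, against 64.4% and 18.8% of the library, so the count of lower hairpins depended on scaling for both genes.

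The genes whose mean log2 fold changes at PD45, PD50, PD55 and PD60 lay nearest to those of ADAR, by Euclidean distance over these 4 values, were RING1 at 0.67, SIN3A at 0.83, PAM at 0.83, JMJD1A at 0.86 and USP22 at 0.91, where the median distance over genes was 3.00. RING1 encodes a ubiquitin ligase of Polycomb complexes, SIN3A a corepressor scaffold, PAM an enzyme that amidates peptides, JMJD1A a histone demethylase and USP22 a deubiquitinase of the SAGA complex. RING1 had means of -1.53, -3.10, -5.11 and -7.64. Nearest to ADARB1 were HIST1H2BB at 0.29, BMI1 at 0.30 and ARID1A at 0.43, and nearest to ADARB2 MTA1 at 0.16, RNF20 at 0.20 and SUV39H1 at 0.24. The 4 values share the PD40 column and come from single pooled columns, so these distances only describe the shape of the means.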

How the data were processed

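The deposited file held counts of tags for each hairpin, per the file headers, in 1 column for each population doubling. Genomic DNA was amplified around the hairpin and cut with XhoI, per the labels' protocols. The submitters' processing notes name Bowtie 1.0.1. Neither its settings nor the way plates of a group were combined is given in the sources used here, so a column was taken as the authors' pooled value. Hairpin sequences were not used here. Counts were divided by column totals to give CPM. Log2 fold changes used a pseudocount of 1 CPM and hairpins with at least 10 tags in either column, which all 15 met against PD40. A gene mean was taken over hairpins that name no other gene, for 631 genes with 3 or more measured. Ratios carry exact 95% intervals. Their calculation was checked on simulated Poisson counts with moderate fold changes. That check covered neither the lowest counts and largest losses given here nor noise beyond counting. With 1 column per group no test was run. Alternatives used TMM factors from edgeR 4.0.16 and size factors from DESeq2 1.42.0 in R 4.3.3, other pseudocounts, no count minimum, the median over hairpins, and hairpins left out in turn. Python 3.11.15, numpy 2.4.6, pandas 2.3.3 and scipy 1.17.1 did the rest. Named were all hairpins of the 3 genes, measured genes of 3 lists, the 5 (ADAR) or 3 genes nearest in shape, and genes next to ADAR in order. The members and lists were chosen with earlier results of these data known.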

Additional observations from a re-analysis of the deposited data

How the results depend on the processing

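No paired analysis was possible because the 10 plates of a group share 1 column. Alternatives for PD45, PD50 and PD55, for single hairpins and for steps between times were chosen after seeing the data; causes of the changes were not tested. For the mean log2 fold change at PD60, listed as ADAR, ADARB1 and ADARB2, TMM gave -2.40, -2.95 and -0.82, DESeq2's size factors -2.38, -3.05 and -0.83, and totals without the 50 most abundant hairpins -6.01, -6.35 and -4.31. A pseudocount of 0.1 gave -9.15, -9.49 and -7.45, and one of 10 gave -5.45, -4.08 and -3.80. The median over hairpins gave -6.88 for ADARB2. Leaving out 1 hairpin gave -8.27 to -7.73, -7.42 to -6.82 and -6.65 to -5.43. Relative to the median hairpin, ADAR was at -0.56 with TMM, -0.46 with size factors, -0.94 with a pseudocount of 0.1 and -0.93 without the 50 hairpins, and from -2.41 to -1.87 without 1 hairpin. ADARB1 there ran from -1.56 to -0.97 without 1 hairpin. ADARB2 was at 1.02 with TMM, 1.08 with size factors, 0.76 with a pseudocount of 0.1, 0.77 without the 50 hairpins, -0.58 with a pseudocount of 10 and -1.02 as a median over hairpins, and from -0.79 to 0.43 without 1 hairpin. Of 5 ADARB2 hairpins, 3 were over 2-fold lower at PD60 with TMM, with size factors and without the 50 hairpins. In the library 64.4%, 64.8% and 87.2% of hairpins were lower in these settings.

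Some directions turned with scaling, given as TMM then size factors. ADAR TRCN0000050791 was at 1.03 and 0.73 at PD45, at 1.21 and 0.63 at PD50, and at 0.88 and 0.40 at PD55. At PD55 TRCN0000050792 was at 2.88 and 2.39. ADARB2 TRCN0000051894 was at 2.74 and 2.17 at PD50, at 3.78 and 3.30 at PD55 (0.54 without the 50 hairpins) and at 3.30 and 3.37 at PD60, and TRCN0000051897 at 2.60 and 2.70 at PD60. With TMM alone, the ADAR mean was 0.15 at PD45 and 0.044 at PD50, and ADARB2 TRCN0000051893 was at 0.051 at PD45. At PD60 the 15 hairpins had 0 to 265 tags, so late values are limited by depth.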
